A study of Mus musculus with 10 samples.

Results

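The homeobox genes described here belong to 12 families outside the Hox clusters: Lhx, Nkx, Irx, Dlx, Msx, Onecut, Alx, Meis, Pitx, Barhl, Emx and the Six-class genes. They were chosen by name alone, as every gene of the count table whose symbol consists of a family stem and a number, which gave 59 of the 33006 genes in the table. The cells were E14 mouse embryonic stem cells carrying NPM1AID, a form of the nucleolar histone chaperone NPM1 fused to an auxin-inducible degron, so that auxin leads to destruction of the protein. All groups shared the same medium, with the cytokine LIF, PD0325901 at 1 µM to inhibit MEK1/2 and CHIR99021 at 3 µM to inhibit GSK3, and all cells were arrested in G1 and then released. RNA was sequenced at 12 h from 2 libraries without auxin and 2 libraries with auxin. H3K27me3, trimethylation of lysine 27 of histone H3, was mapped by ChIP-seq in 1 sample without auxin at 6 h and, at 12 h, by CUT&RUN in 1 sample labelled control, so the marks below describe cells with NPM1 and have no replicate. The headers of the count table name a single clone. Nothing in the labels says that the replicates were separate cultures, so the p-values cover no more than the spread among these libraries, and that spread may be technical. Auxin-treated cells without the degron were not analysed here, and an effect of auxin itself cannot be told apart from loss of NPM1.

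Homeobox genes encode transcription factors that bind DNA through a homeodomain and set the identity of organs, body regions and neuron types in the embryo. In embryonic stem cells many of them are held silent by Polycomb: Polycomb repressive complex 2 (PRC2) places H3K27me3 over promoters rich in CpG dinucleotides, and genes of this kind are known for broad domains of the mark. The families differ in their partners. The LIM homeodomain (Lhx) factors bind Ldb and are opposed by Lmo proteins, Six-class factors act with the Eya phosphatases, Meis factors pair with Pbx, and several Nkx and Six-class factors recruit the Groucho (Tle) corepressors.

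Promoter sequence gives the first common feature of the families that their names did not determine. A promoter entry was found for 40 of the 59 genes in the RefSeq table (assembly GRCm38.p6), and for 34 of them its start lay within 1 kb of the 5′ end annotated in the count table. Over the 250 bases before the start, the 40 promoters held a median of 16.5 CG dinucleotides at a median GC content of 64.2%, against 6 CG dinucleotides and 52.4% for all 32851 entries. In 38 of the 40 the number of CG dinucleotides was above that median of all entries. Part of this sequence is annotated exon in the count table. Exons covered all 250 bases for several genes, among them Barhl2, Emx1, Msx2 and Six4, and 207 bases for Meis3. The overlap was not measured for all entries. The letters TAAT, the core that many homeodomains bind, were searched on both strands, where TAAT and its reverse complement can overlap. They occurred in 16 of the 40 promoters (40.0%) and in 54.9% of all entries, and the TATA box letters TATAAA, also on both strands, in 3 of the 40 (7.50%) and in 12.4% of all entries. These matches are descriptions of the letters only. The sequences of 4 promoters follow, each as the 250 bases before the RefSeq start, 5′ to 3′ on the gene's own strand, with CG dinucleotides in capitals. Msx1 (chr5:37824586-37824835, minus strand) and Nkx6-2 (chr7:139582798-139583047, minus strand) both rose with auxin; a ChIP-seq peak lay 215 bp from the annotated 5′ end of Msx1, and none lay within 20 kb of that of Nkx6-2. Nkx2-1 (chr12:56536909-56537158, minus strand) and Nkx2-3 (chr19:43612075-43612324, plus strand) are shown, chosen after their values were seen, because their 5′ ends lay inside a peak of both H3K27me3 lists.
Msx1: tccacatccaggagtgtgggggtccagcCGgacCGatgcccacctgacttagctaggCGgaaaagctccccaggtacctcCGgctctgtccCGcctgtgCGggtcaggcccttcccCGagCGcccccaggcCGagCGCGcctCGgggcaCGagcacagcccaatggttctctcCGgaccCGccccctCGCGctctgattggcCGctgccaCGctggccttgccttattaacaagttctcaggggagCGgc
Nkx6-2: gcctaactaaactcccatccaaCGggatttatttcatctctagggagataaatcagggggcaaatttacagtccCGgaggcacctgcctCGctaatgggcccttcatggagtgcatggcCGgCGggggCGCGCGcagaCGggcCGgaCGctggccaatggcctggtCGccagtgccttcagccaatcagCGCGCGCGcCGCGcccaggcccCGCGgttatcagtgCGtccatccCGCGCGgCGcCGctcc
Nkx2-1: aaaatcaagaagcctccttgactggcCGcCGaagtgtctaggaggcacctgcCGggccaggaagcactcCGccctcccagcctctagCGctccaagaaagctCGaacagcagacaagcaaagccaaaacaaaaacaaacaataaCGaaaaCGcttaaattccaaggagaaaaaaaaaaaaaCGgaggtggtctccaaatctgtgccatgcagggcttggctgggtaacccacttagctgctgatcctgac
Nkx2-3: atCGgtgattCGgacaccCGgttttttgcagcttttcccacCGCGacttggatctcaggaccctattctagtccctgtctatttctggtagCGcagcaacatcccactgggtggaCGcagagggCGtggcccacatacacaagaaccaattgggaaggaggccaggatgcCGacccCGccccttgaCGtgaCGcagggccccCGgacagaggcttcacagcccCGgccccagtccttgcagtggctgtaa
The stretch held 20 CG dinucleotides for Msx1, 26 for Nkx6-2, 9 for Nkx2-1 and 14 for Nkx2-3. The unmarked Nkx6-2 promoter thus had the highest number of the 4 and the doubly marked Nkx2-1 promoter the lowest. This order of 4 chosen promoters does not stand for the 40. The 40 were also grouped by H3K27me3 peaks within 1 kb of the 5′ end. The median number was 30.5 for the 6 promoters marked in ChIP-seq only and 15 for the 18 marked in both lists. It was 13 for the 5 marked in CUT&RUN only and 16 for the 11 marked in neither.

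The 4 RNA libraries held between 13353446 and 16046290 counted fragments, and mitochondrial genes took between 3.46% and 4.96% of them. The degron removes a protein, so the Npm1 transcript does not check the labels; it measured 1058 and 951 CPM without auxin and 843 and 767 CPM with auxin. CPM stands for counts per 1000000 counted fragments, scaled between libraries by the trimmed mean of M-values (TMM). A count of 3, taken as the floor of detection, corresponds to between 0.187 and 0.225 CPM in a library. Auxin replicate 2 read higher than auxin replicate 1 for 27 of the 33 tested homeobox genes (81.8%, against 50.5% of all tested genes), and replicate 2 without auxin read higher than replicate 1 for 23 (69.7%, against 48.01%). The 10 pluripotency markers summed to 7724 and 7586 CPM without auxin and to 7428 and 7234 CPM with auxin; all 10 were tested, 2 were called higher and 5 lower.

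Most of these homeobox genes were near or below detection in cells with NPM1. Without auxin 39 of the 59 averaged under 1 CPM, and Nkx2-6, Nkx3-2 and Six6 had no count in any of the 4 libraries. Such levels were also common among all genes, here grouped by H3K27me3 peaks within 1 kb of the 5′ end. Under 1 CPM were 1612 of 1963 genes marked in both lists and 682 of 1035 in ChIP-seq only. The same held for 1985 of 2396 in CUT&RUN only and 15544 of 26959 in neither. Only 5 of the 59 homeobox genes averaged over 10 CPM: Nkx1-2, a gene of the posterior epiblast, Nkx6-2, a regulator of ventral neural progenitors and oligodendrocytes, Six4, Irx2 and Meis2. To compare genes with one another, levels were divided by exon length. Per kb, Nkx6-2 had the highest level, 20.8 and 19.4 CPM per kb in the libraries without auxin, followed by Nkx1-2 with 21.3 and 16.4. The values of these 2 genes overlapped, so their order is not resolved. Irx2, an Iroquois factor, had 5.59 and 7.03 CPM per kb, Nkx2-9 5.67 and 5.15, and Msx2 5.10 and 5.67, and these 3 overlapped as well. Six4 came next at 4.31 and 4.68 CPM per kb, below all of them in both libraries.

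Other families had lower maxima without auxin, given as means per kb. Meis2, a partner of Pbx and Hox proteins, reached 1.62 CPM per kb, and Lhx6, known from cortical interneurons, 1.04. Alx1, a craniofacial regulator, reached 0.709 CPM per kb, Dlx5 0.388 and Onecut2 0.224. Emx1, a gene of the dorsal forebrain, and Barhl2 led their families with only 0.0626 and 0.0266 CPM per kb. In the 2 libraries without auxin these levels rested on 1 and 3 fragments for Emx1 and 1 and 1 for Barhl2. On so few fragments the order within these 2 families is not resolved. Each family with a member above 10 CPM also held members under 1 CPM, except Meis, whose lowest member without auxin was Meis3 at 2.11 CPM (SD 0.492, n = 2).

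**Figure D1:**
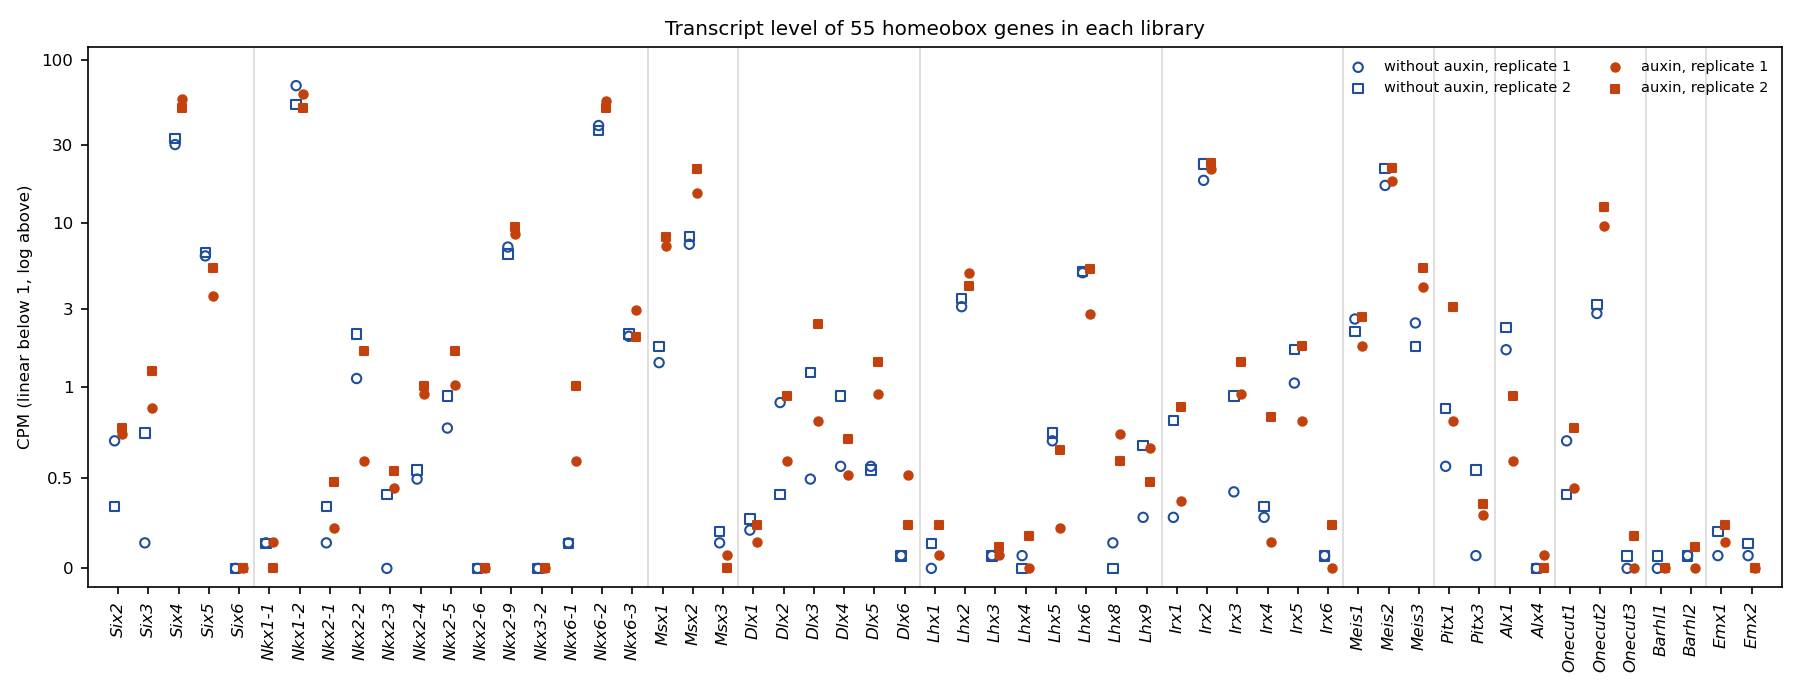
Level of 55 of the homeobox genes in each of the 4 RNA libraries, as CPM scaled by TMM on an axis that is linear below 1 and logarithmic above, grouped by family; points are single libraries without and with auxin. Most genes lie under 1 CPM, and Nkx1-2, Nkx6-2, Six4, Irx2 and Meis2 stand above 10 CPM in all libraries.

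H3K27me3 was read from the authors' broad peak lists, which held 41159 peaks for ChIP-seq and 66242 for CUT&RUN. A gene was counted as marked in a list when a peak came within 1 kb of its 5′ end, upstream or downstream. By this measure 28 of the 59 homeobox genes (47.5%) were marked in both lists, against 6.07% of the 32353 genes placed on autosomes and X. The ChIP-seq list alone marked 11 more (3.20% of all placed genes) and the CUT&RUN list alone 6 (7.41%). In total ChIP-seq marked 39 of 59 (9.27% of all placed genes) and CUT&RUN 34 of 59 (13.5%). No peak of either list lay in the window for 14 of the 59, a state that held for 83.3% of all placed genes.

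Families differed in how completely they were marked. All 8 Lhx genes carried a mark in the window, 6 in both lists and Lhx1 and Lhx9 in CUT&RUN only. Both Emx genes were marked in both lists, and both Barhl genes in ChIP-seq only. Alx, Pitx and Onecut, with 3 genes each, had no unmarked member. Among the 14 Nkx genes 5 were marked in both lists, 2 in ChIP-seq only and 3 in CUT&RUN only, while 4, among them Nkx1-2, Nkx6-1 and Nkx6-2, had no peak in the window. The Six-class family was divided evenly: 3 genes, among them Six3 and Six6 of the forebrain and eye, were marked in both lists, and 3, among them Six4, in neither. Irx had 2 genes marked in both lists, 2 in ChIP-seq only and 2 in neither; Dlx had 3 in both, Dlx1 in CUT&RUN only, and Dlx2 and Dlx6 in neither. Meis1 and Meis2 were unmarked and Meis3 was marked in both lists. Msx1 was marked in ChIP-seq only, Msx2 in neither and Msx3 in both.

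The window decided several of these classes. Irx3 had its nearest ChIP-seq peak 1012 bp from the 5′ end, just outside, whereas the ChIP-seq peak of Pitx3 lay just inside at 997 bp. Over the gene and 5 kb on either side, 52 of the 59 genes overlapped a ChIP-seq peak and 53 a CUT&RUN peak, against 24.7% and 32.8% of all placed genes. The median gene had 21.3% of this region covered by ChIP-seq peaks and 35.4% by CUT&RUN peaks, and the median over all placed genes was 0 for both. At least 25% of the region was covered in 26 genes by ChIP-seq peaks (1.93% of all genes) and in 39 by CUT&RUN peaks (7.27%). The widest cover was at Nkx1-1 in ChIP-seq (66.1%) and at Dlx4 in CUT&RUN (74.9%). Within a window of 500 bp the count marked in both lists was 18 (3.58% of all genes), and with peaks of a −log10 q of at least 2 it was 9 (1.57%). Within 2 kb it was 38 (9.36%), and where any annotated exon overlapped a peak it was 35 (9.50%).

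Neighbouring genes of a family, which lie in 9 pairs within 100 kb of each other, showed how the cover was spread. The convergent Dlx pairs, known to share enhancers between their genes, were covered along much of their span: Dlx5 and Dlx6 by 27.9% in ChIP-seq and 69.0% in CUT&RUN, Dlx3 and Dlx4 by 32.1% and 50.6%, and Dlx1 and Dlx2 by 24.3% and 15.4%. The span of Six3 and Six2 was covered by 24.4% and 44.1%.

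The 5 genes above 10 CPM without auxin had no peak in the window of 1 kb. Per kb of exon the order differed: Nkx2-9, above Six4 and Meis2 per kb, was marked in CUT&RUN, with 46.5% of its region covered. Nkx1-2, Nkx6-2 and Six4 were the only 3 of the 59 with no peak of either list within 5 kb of the gene, and of the other 2 genes above 10 CPM, Irx2 had 3.17% of its region covered by CUT&RUN peaks and none by ChIP-seq, and Meis2 0.27% by ChIP-seq and none by CUT&RUN. The median level without auxin was 0.308 CPM for the 28 genes marked in both lists, 0.555 CPM for the 11 marked in ChIP-seq only, 0.360 CPM for the 6 marked in CUT&RUN only and 5.59 CPM for the 14 marked in neither. In the first of these classes 24 of 28 were under 1 CPM, against 1612 of 1963 among all placed genes of that class. Its highest member was Lhx6 at 5.04 CPM (SD 0.0690, n = 2). The unmarked class was not uniformly on: 5 of its 14 genes were under 1 CPM, among them Dlx6 at 0.0690 CPM and Nkx6-1 at 0.138 CPM. Among all unmarked placed genes 15544 of 26959 were under 1 CPM. Per kb the medians were 0.128 for genes marked in both lists and 1.35 for unmarked genes, against 0.0176 and 0.102 CPM per kb for all placed genes of those classes. The name of these families as Polycomb targets therefore holds for part of them by the peak lists, and not for the 5 genes with the highest counts.

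**Figure D2:**
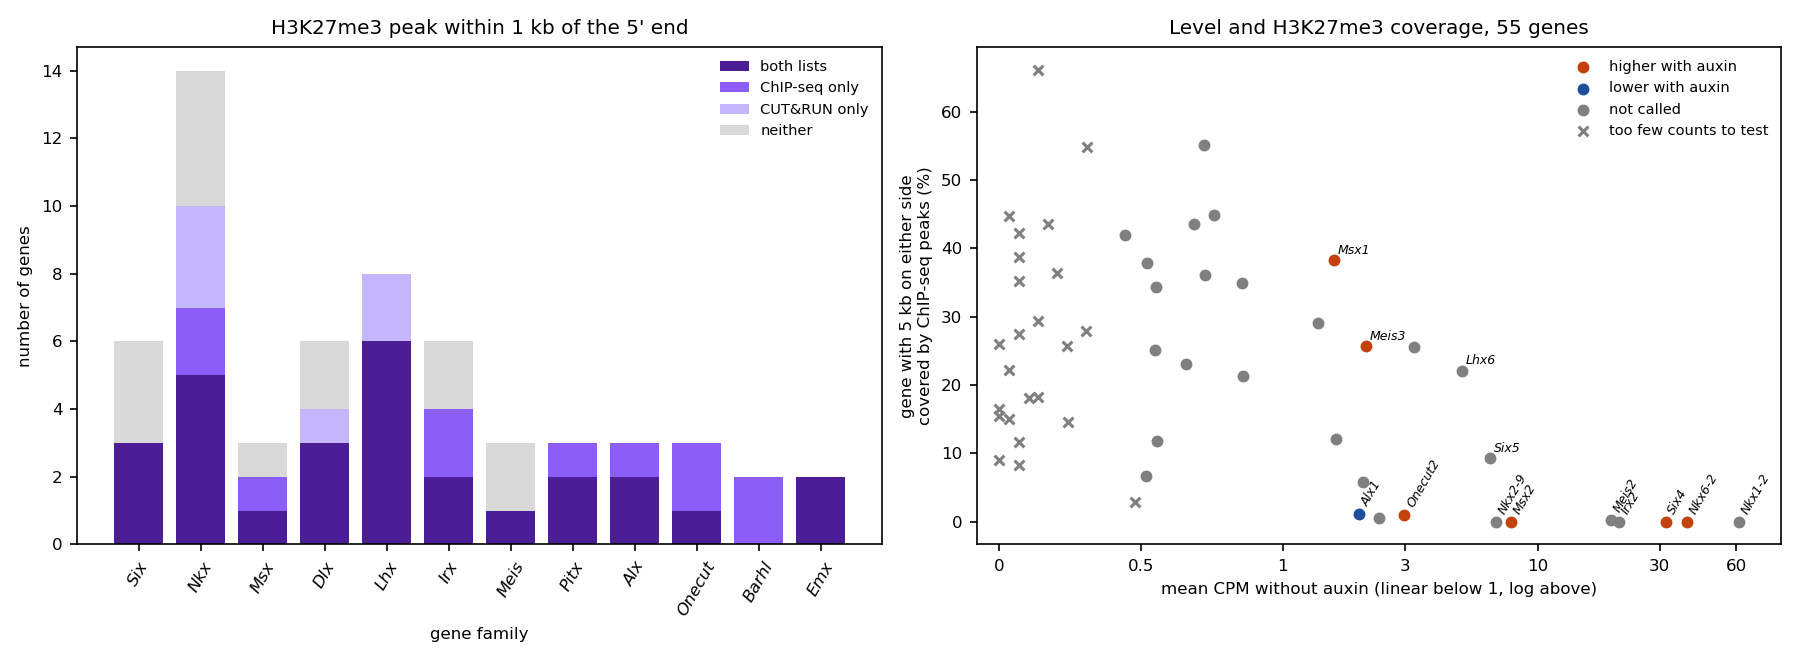
Left, number of genes of each family whose 5′ end has an H3K27me3 peak within 1 kb in both lists, in ChIP-seq only, in CUT&RUN only or in neither. Right, mean CPM without auxin (horizontal axis, linear below 1 and logarithmic above) against the percentage of the gene and 5 kb on either side covered by ChIP-seq peaks, 1 point for each of 55 genes; the genes above 10 CPM lie at or near 0% covered.

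With auxin, 8 homeobox genes rose and 1 fell. The comparison of 12 h with against 12 h without auxin was tested with edgeR's quasi-likelihood test over all genes of the table, at a Benjamini-Hochberg adjusted p under 0.05. Of the 59 genes 33 passed the minimum level for testing, and 8 of these 33 were called higher (24.2%), where 13.0% of the 13522 tested genes were called higher. Alx1 was the only gene called lower (3.03%), where 14.5% of tested genes were called lower. Either call was made for 27.5% of all tested genes. The fit called neither direction for the remaining 24. Of the 33, 19 reached the minimum in both groups, 7 only in the auxin libraries, 3 only in the libraries without auxin and 4 in neither group in full. All 8 genes called higher reached the minimum without auxin, while Alx1 reached it only there. The fitted log2 change was above 0 for 24 of the 33 and below 0 for 9, with a median of 0.46, against a median of 0.01 over all tested genes. The median over the 19 genes that reached the minimum in both groups was also 0.46; with auxin replicate 2 left out the median of the tested genes was 0.26.

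Of the Msx genes, which act downstream of BMP signals in limb, tooth and skull, Msx1 and Msx2 rose. Msx1 (chr5:37820485-37824583, mm10, minus strand) measured 1.40 and 1.76 CPM without auxin and 7.30 and 8.26 CPM with auxin. Both auxin libraries were above both controls with a wide gap, a log2 change of 2.29 (SE 0.22; adjusted p = 4.44e-05, edgeR). It rested on 20 and 26 fragments without auxin and 99 and 139 with it. Msx2 (chr13:53467877-53473074, minus strand) went from 7.45 and 8.27 CPM to 15.4 and 21.5 CPM. Its groups did not overlap either, with a log2 change of 1.24 (SE 0.17; adjusted p = 0.000413, edgeR) and a larger spread between the auxin libraries than for Msx1. The 2 genes differed in the mark: Msx1 had 10 ChIP-seq and 4 CUT&RUN peaks within 10 kb of its 5′ end, the strongest in its window at chr5:37823512-37824368 with the authors' fold enrichment of 3.55, and Msx2 had only 1 CUT&RUN peak within 10 kb. Msx3 was not tested, with 2 and 3 fragments without auxin and 1 and 0 with auxin.

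In the Six-class family Six4, which acts in muscle, kidney and sensory placodes, rose. Six4 (chr12:73099609-73114037, minus strand) measured 30.3 and 33.0 CPM without auxin and 57.5 and 50.8 CPM with auxin. The spread within each group was small beside the difference, a log2 change of 0.77 (SE 0.09; adjusted p = 0.000141, edgeR). Six5 was lower in both auxin libraries, at 3.61 and 5.35 CPM against 6.32 and 6.64 CPM (log2 change −0.51, adjusted p = 0.0878, edgeR). Six3, at 0.140 and 0.746 CPM without auxin and 0.885 and 1.25 CPM with auxin, had a log2 change of 1.26 (SE 0.56; adjusted p = 0.117, edgeR) on 2 and 11 control fragments. With a library left out the log2 change of Six3 ran from 0.53 to 2.87, and it was called higher with control replicate 2 left out (adjusted p = 0.0244, edgeR).

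Genes of other families rose as well. Onecut2 (chr18:64340364-64398487, plus strand), a cut-type factor of liver, pancreas and neurons, measured 2.81 and 3.19 CPM without auxin and 9.66 and 12.7 CPM with auxin. Its groups were far apart, with a log2 change of 1.90 (SE 0.20; adjusted p = 7.70e-05, edgeR). Its paralog Onecut1 measured 0.702 and 0.407 CPM without auxin and 0.442 and 0.772 CPM with auxin, and these groups overlapped. Nkx6-2 (chr7:139579377-139582797, minus strand) had the smallest change among the called genes, from 39.7 and 36.9 CPM to 55.7 and 51.02 CPM. The log2 change was 0.48 (SE 0.08; adjusted p = 0.00158, edgeR), with no overlap between groups. Nkx1-2, the other Nkx gene at a high level, measured 69.6 and 53.4 CPM without auxin and 61.6 and 50.9 CPM with auxin, so its groups overlapped (log2 change −0.13, adjusted p = 0.443, edgeR). Nkx2-9 measured 7.17 and 6.51 CPM without auxin and 8.63 and 9.50 CPM with auxin, without overlap, at a log2 change of 0.41 (adjusted p = 0.0703, edgeR).

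Meis3 (chr7:16175090-16186510, plus strand), a hindbrain gene, went from 2.46 and 1.76 CPM to 4.06 and 5.35 CPM. Its log2 change was 1.17 (SE 0.26; adjusted p = 0.00642, edgeR), and it was the only called gene marked in both H3K27me3 lists. The more abundant Meis2 measured 17.1 and 21.8 CPM without auxin and 18.2 and 21.9 CPM with auxin, which overlapped. Pitx1, which specifies the hindlimb, had a log2 change of 1.48 (SE 0.56; adjusted p = 0.0708, edgeR) that rested on 1 library: it measured 0.562 and 0.881 CPM without auxin, 0.811 CPM in auxin replicate 1 and 3.09 CPM in auxin replicate 2. With auxin replicate 2 left out the log2 change of Pitx1 was 0.16, and with auxin replicate 1 left out it was 2.08.

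Alx1 (chr10:103007847-103029054, minus strand) measured 1.69 and 2.31 CPM without auxin and 0.590 and 0.950 CPM with auxin. Both auxin libraries were below both controls, on 8 and 16 fragments against 24 and 34, with a log2 change of −1.34 (SE 0.37; adjusted p = 0.0189, edgeR). The call was lost with DESeq2 (adjusted p = 0.134), without replicate 2 of the controls (adjusted p = 0.129, edgeR) and with auxin replicate 1 left out (adjusted p = 0.0900, edgeR). With auxin replicate 2 left out, edgeR called 3 genes lower: Alx1, Lhx6 and Six5.

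**Figure D3:**
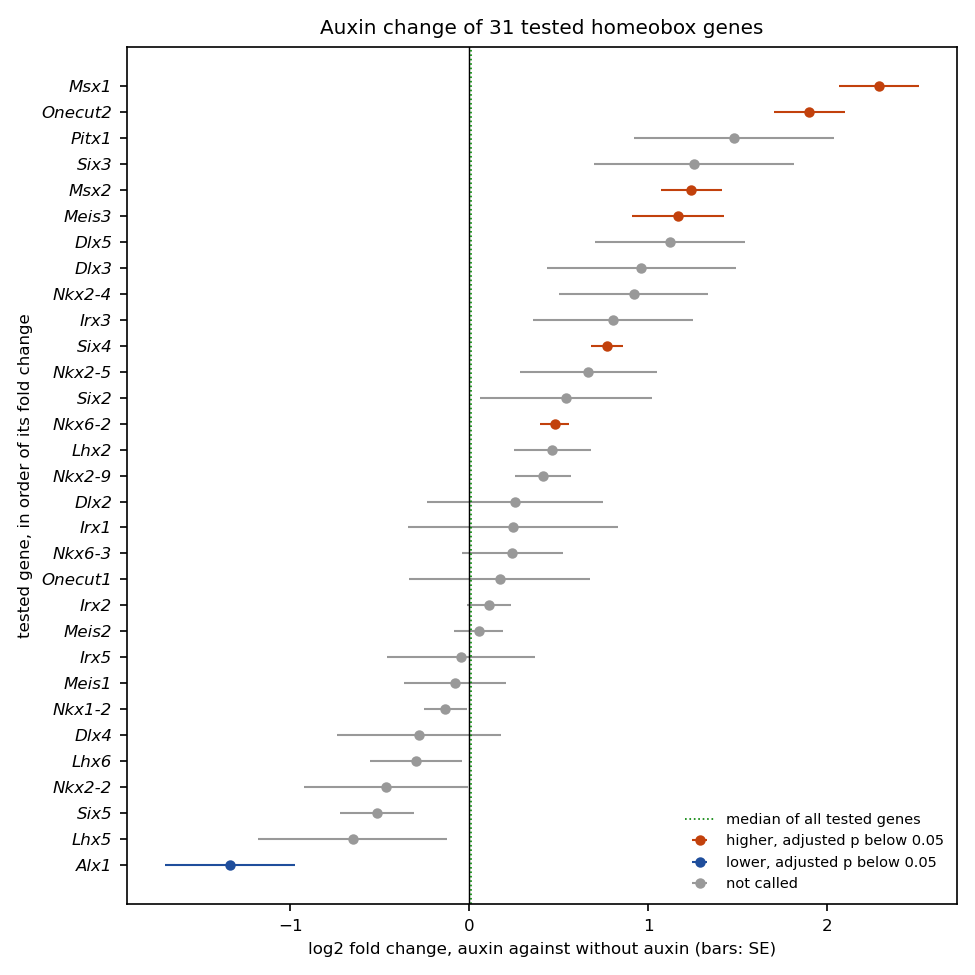
Log2 change with auxin for 31 of the tested homeobox genes, fitted with edgeR and coloured by call. Points are fitted values, and bars are standard errors (SE) derived from the F statistic of the test. The 6 genes called higher that are drawn run from Nkx6-2 at 0.48 to Msx1 at 2.29, and Alx1 at −1.34 is the only gene called lower.

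In 5 families no gene was called. Of the Lhx genes 3 were tested: Lhx2 measured 3.09 and 3.46 CPM without auxin and 4.94 and 4.16 CPM with auxin (log2 change 0.46, adjusted p = 0.132, edgeR). Lhx6 measured 4.99 and 5.09 CPM without auxin but 2.80 and 5.23 CPM with auxin, so its 2 auxin libraries lay on either side of the controls (adjusted p = 0.428, edgeR). Lhx5 had a log2 change of −0.65 (adjusted p = 0.389, edgeR). Among the 4 tested Dlx genes, Dlx5, which acts in branchial arches and forebrain, measured 0.562 and 0.542 CPM without auxin and 0.959 and 1.43 CPM with auxin, a log2 change of 1.12 (SE 0.42; adjusted p = 0.0657, edgeR). Among the 4 tested Irx genes, Irx2 measured 18.3 and 23.1 CPM without auxin and 21.4 and 23.3 CPM with auxin, and the log2 changes of the 4 ran from −0.04 to 0.81. No Emx or Barhl gene reached the level for testing.

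Among the 26 untested genes, 23 had at least 1 fragment. In 5 of these 23, Dlx6, Lhx3, Lhx8, Nkx2-3 and Nkx6-1, both auxin libraries were above both controls, which held for 19.1% of all untested genes with a count. In 3, among them Emx2 and Msx3, both were below (8.85% of such genes). Lhx8 had 2 and 0 fragments without auxin and 10 and 10 with auxin. Nkx6-1 had 2 and 2 fragments without auxin and 8 and 17 with auxin, and Dlx6 1 and 1 against 7 and 4. Lhx3 had 1 and 1 against 1 and 2, so that its separation rests on 1 fragment. Over the 33 tested genes both auxin libraries were above both controls for 16 and below them for 3, where 33.0% and 31.8% of all tested genes were so placed. Of the 33, 7 reached the minimum level only in the auxin libraries, and Dlx5, Irx3, Nkx2-4, Six2 and Six3 of these are in the 16. Another 3 reached it only in the libraries without auxin, among them Alx1 and Lhx5, which were both below. Both counts are thus partly set by the minimum level.

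The summed level of all 59 genes was 238 and 240 CPM without auxin and 311 and 322 CPM with auxin. Nearly all of that difference lay in the 8 genes called higher, which summed to 92.8 and 95.6 CPM without auxin and 168 and 169 CPM with auxin. These 8 were picked for rising in the same libraries, so their share of the difference follows in part from the call. The 24 tested genes without a call summed to 141 and 138 CPM without auxin and 137 and 146 CPM with auxin, which overlapped. The 26 untested genes summed to 3.16 and 5.09 CPM without auxin and 5.24 and 6.77 CPM with auxin. In bulk RNA more cells expressing a gene and more RNA per cell cannot be told apart.

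The calls were spread over marked and unmarked genes. Of the 12 tested genes marked in both lists 1 was called higher, Meis3. Of the 8 tested genes marked in ChIP-seq only, 3, among them Msx1 and Onecut2, were called higher and Alx1 lower, and neither of the 2 tested genes marked in CUT&RUN only was called. Of the 11 tested genes without a mark, 4 were called higher, among them Msx2, Nkx6-2 and Six4. Over all genes the shares of tested genes called higher were 18.2% for both lists, 23.0% for ChIP-seq only, 16.7% for CUT&RUN only and 12.3% for neither. Testing needs a minimum level, so the silent marked genes are largely outside these counts. H3K27me3 in auxin-treated cells was not analysed here.

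**Figure D4:**
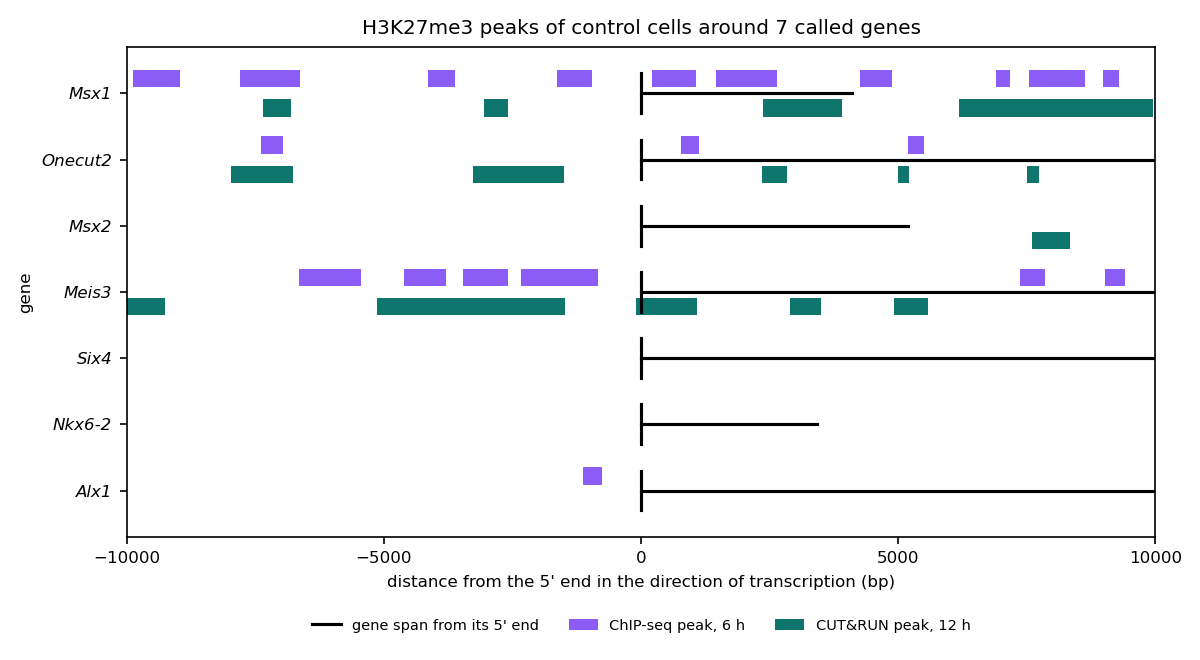
H3K27me3 peaks of the ChIP-seq and CUT&RUN lists around 7 of the genes called higher or lower with auxin, drawn by distance in bp from the annotated 5′ end in the direction of transcription. Msx1 and Meis3 have many peaks within 10 kb, and Nkx6-2 and Six4 have none in either list.

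Cofactors of these families were called at about the shares of all tested genes. Of 30 partner genes with counts listed, 23 were tested, 3 were called higher (against 13.0% of all tested genes) and 4 lower (against 14.5%), with a median log2 change of 0.01, and none of the 30 was marked in both H3K27me3 lists. The Groucho corepressor gene Tle4 fell from 227 and 207 CPM to 163 and 153 CPM (log2 change −0.46, SE 0.06; adjusted p = 0.000343, edgeR). The TALE repressor gene Tgif1 fell from 215 and 200 CPM to 173 and 150 CPM, and Lmo4, a LIM-only antagonist of Lhx factors, from 16.6 and 18.4 CPM to 12.4 and 11.9 CPM. The groups did not overlap in any of these 3. Eya1, the coactivator of Six-class proteins, was called higher at 29.9 and 25.0 CPM without auxin and 40.3 and 32.0 CPM with auxin (log2 change 0.39, SE 0.12; adjusted p = 0.0335, edgeR). Tle6 and Lmo1 were the other 2 called higher, at log2 changes of 0.62 and 1.45. These 3 higher calls were 0 with DESeq2, where 3 genes had an unadjusted p under 0.05, and with auxin replicate 2 left out only Eya1 was called higher.

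Markers of other cell types were read beside the homeobox genes. Of the 10 trophectoderm markers 9 were tested and 5 were called higher (Tfap2c, Gata2, Cdx2, Gata3 and Hand1), and the list summed to between 98.6 and 110 CPM without auxin and between 172 and 207 CPM with auxin, with Elf5 at 0 in every library. Hand1 reached the minimum level for testing only in the auxin libraries. Neural markers summed to between 122 and 127 CPM without auxin and between 141 and 142 CPM with auxin, with 2 of 6 tested called higher and Sox1 lower. Mesoderm markers summed to between 77.3 and 80.1 CPM without auxin and between 48.5 and 50.3 CPM with auxin. Eomes, which held most of the sum without auxin, fell from a mean of 57.2 CPM to 20.5 CPM. T, Tbx5 and Pdgfra rose among 7 tested, and the median log2 change of the 7 was 0.52. Tbx5 reached the minimum level for testing only in the auxin libraries. Endoderm markers summed to between 184 and 199 CPM without auxin and between 222 and 231 CPM with auxin, with 2 of 6 tested called higher and Ttr at 0. Most of this sum was Lama1, at 180 and 164 CPM without auxin and 205 and 192 CPM with auxin. The fibroblast list summed to between 2751 and 2894 CPM without auxin and between 2692 and 2902 CPM with auxin, with 1 of 6 tested called higher, almost all from Fn1, while Lum and Postn had at most 1 fragment in any library. The part of these marker changes in the homeobox results was not tested.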

How the data were processed

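Gene counts were deposited by the authors as raw fragment counts for 33006 genes, made with featureCounts 1.6.3 on mm10 exons summed by gene name per the file headers, after STAR 2.6.1d per the submitters' processing notes. The same deposited table gives the exon length per gene used for CPM per kb. H3K27me3 peaks were deposited as broad peak lists that give each peak's score, its fold enrichment over background and its −log10 p-value and q-value; MACS2 2.1.1 and Bowtie2 2.4.1 stand in the submitters' processing notes. Counts were fitted with edgeR 4.0.16 (R 4.3.3, limma 3.58.1), TMM scaling, a minimum of 10 counts at the median library (0.667 CPM) in 2 libraries, no replicate block, and Benjamini-Hochberg adjustment over 13522 genes; DESeq2 1.42.0 was an alternative. Each SE was derived from the test, as the absolute log2 change divided by the square root of its F statistic. The code was tested on simulated counts. A peak within 1 kb of a 5′ end marked the gene. Named genes were those called, those with an absolute log2 change of at least 1, and the highest per kb in each family; others were named after their values were seen. Of the other lists, the 3 genes with the smallest p in each direction were named. The genes and lists were chosen with earlier results of these data known. Depth was 13353446 to 16046290 counts per library. No protein sequences were used here. Values of 4 of the 59 genes are not reported here; they stay in the counts, sums and medians.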

Additional observations from a re-analysis of the deposited data

How the results depend on the processing

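All 8 genes called higher kept their call in every RNA alternative run: DESeq2, RLE and upper-quartile factors, at least 1 read in any library, the replicate block and each library left out. The count of higher calls ran from 8 to 11 with a library left out, and that of lower calls from 1 to 3; without replicate 2 of the controls and with auxin replicate 1 left out, the single lower call was Nkx1-2 in place of Alx1. DESeq2 called 0 genes lower (1 at an unadjusted p under 0.05), and 2, Alx1 and Six5, were lower with at least 1 read in any library. Counting only genes that reach the minimum with auxin, an alternative chosen after seeing the data, left 0 lower calls; the same restriction without auxin left 8 higher calls. The median log2 change ran from 0.26 to 0.68 with a library left out. DESeq2 called 0 partner genes higher (3 unadjusted), and this count ran from 1 to 2 with a library left out; for homeobox genes outside the 12 families DESeq2 called 5 higher. The log2 change ran from -0.045 to 0.28 for Irx2, from -0.84 to 0.051 for Lhx6 and from -0.11 to 0.23 for Meis2 with a library left out, so these had no stable direction; it was -0.09 for Meis2 with auxin replicate 2 left out. With a lone library in a group, that library is assumed to vary like the other group. Marks in both lists were 28 in the main count, 18 with 500 bp, 9 with a −log10 q of at least 2, 15 with peaks over at least 0.25 of the window (2.71% of all genes), 38 with 2 kb and 35 with any exon. The causes were not tested.

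The replicate numbers share only a number in the labels, with 2 pairs and a correlation of 0.23 between deviations of same-numbered libraries. With the replicate block 13 genes were called higher, adding Dlx3, Dlx5, Nkx2-9, Pitx1 and Six3, and 2 lower (Alx1 and Six5), while over all 13522 tested genes the block raised the higher calls from 1759 to 2972 and the lower calls from 1964 to 3177; 16 homeobox genes outside the families were higher. Depth limits the 39 genes under 1 CPM, where a difference of a few fragments was not detectable.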

Other observations

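Homeobox genes outside the 12 families and the Hox clusters were read in the same libraries. Of 74 with counts listed, 45 were tested, 10 were called higher with auxin (against 13.0% of all tested genes) and 2 lower (against 14.5%), with a median log2 change of 0.20. In both H3K27me3 lists 24 of the 74 were marked, against 6.07% of all placed genes. Cdx2, a trophectoderm and posterior regulator that is also on the trophectoderm marker list, measured 4.00 and 4.95 CPM without auxin and 10.8 and 11.0 CPM with auxin (log2 change 1.28, SE 0.17; adjusted p = 0.000322, edgeR). Nanog, a pluripotency factor, rose from 842 and 832 CPM to 1066 and 1034 CPM, and Tshz1 from 10.4 and 12.6 CPM to 19.7 and 19.6 CPM. Gbx2 fell from 43.2 and 44.7 CPM to 29.4 and 27.6 CPM, and Evx1, a gene of the posterior primitive streak, from 7.38 and 5.70 CPM to 3.10 and 2.85 CPM. The groups did not overlap for any of these 5 genes. With DESeq2 the number called higher was 5, and with the replicate block it was 16.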
